A study of Mus musculus with 2 samples.

Results

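*Wnt7b*, *Hhip*, *Shisa3*, *Igfbp5* and *Vwc2* are 5 of the 500 genes that were measured by multiplexed in situ imaging in the embryonic mouse head, and they were taken as a group because each one encodes a secreted ligand or a protein that modulates a secreted signal. All 5 are protein-coding genes. In the mouse genome build GRCm39 *Wnt7b* lies on chromosome 15 (85419638 to 85466674, minus strand), *Hhip* on chromosome 8 (80692480 to 80784658, minus strand), *Shisa3* on chromosome 5 (67765217 to 67780895, plus strand), *Igfbp5* on chromosome 1 (72897091 to 72914043, minus strand) and *Vwc2* on chromosome 11 (11064001 to 11218931, plus strand). These positions were looked up by gene symbol, since the measurements themselves carry no genome coordinates. The analysis asks which cells and which places held the transcripts of each gene, and how the levels compared between the sections.

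MERFISH, which reads single RNA molecules in tissue through fluorescent barcodes imaged over repeated rounds, was applied with a neural gene panel to 1 coronal section, 10 µm thick, of a control head and 1 of a *Dnmt1* KO head, both at E16.5. The control carried *Sst-Cre/tdTomato*. The KO carried *Sst-Cre/tdTomato/Dnmt1 loxP2*, so both groups shared the *Sst*-driven Cre recombinase and the red reporter. Cre is switched on with *Sst*, which encodes somatostatin, a neuropeptide, so that most cells of the section are not a direct target of the deletion. *Dnmt1* itself is not on the panel, so the deletion could not be checked here. Whole heads were frozen, and each section accordingly holds skin, connective tissue and other tissue around the brain. With 1 section per genotype there is no replicate and no test was made. Genotype, animal, plane of section and imaging run cannot be told apart, and every interval below is a 95% interval for counting error only.

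The control section held 108533 segmented cells with 2842355 panel transcripts (median 20 per cell) and the KO section 110004 cells with 13437174 (median 101 per cell). Only cells holding 20 or more panel transcripts were used, namely 55231 control (50.9%) and 101250 KO cells (92.0%), so that the same minimum left out a larger share of the shallower control section. Levels are given as counts per 1000000 panel transcripts (CPM) to set the sections on a common scale. Of 50 blank barcodes, which match no gene, the median lay at 82.1 CPM in the control section against 87.5 CPM in the KO and the highest at 262 and 240 CPM, and these serve as a floor. The tissue shares also differed. Tissue outside the brain supplied 31.1% of panel transcripts in the control section against 24.6% in the KO, and the pallial region, where the cortex forms, supplied 20.2% and 24.6%.

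Wnt ligands bind Frizzled receptors at the cell surface, and *Wnt7b* is known in the developing forebrain from cortical neurons and for its action on brain vessels. *Hhip* encodes a membrane protein that binds and sequesters Hedgehog ligands. *Shisa3* encodes a membrane protein of the endoplasmic reticulum that holds back Wnt and FGF receptors. *Igfbp5* encodes a secreted protein that binds insulin-like growth factors, and *Vwc2* encodes brorin, a secreted antagonist of bone morphogenetic proteins (BMPs).

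The 5 genes occupied different places in both sections. *Wnt7b* lay mostly in the pallial region, which held 76.1% (control) and 77.0% (KO) of its transcripts in cells. *Hhip* and *Shisa3* lay in a ring around the brain, *Igfbp5* in a broader band outside the brain and *Vwc2* mostly in the brain. Of *Vwc2* transcripts in cells, 59.5% (control) and 52.6% (KO) lay in the brain outside the pallial region. The pallial region held 18.0% and 18.6% of them, beside 20.2% and 24.6% of all panel transcripts. Outside the brain lay 11.2% (10.6 to 11.8) of all decoded *Wnt7b* molecules in the control section and 10.0% (9.81 to 10.2) in the KO, against 29.5% and 26.0% of all panel molecules. For *Shisa3* the shares were 95.5% (94.7 to 96.2) and 91.6% (91.0 to 92.1), for *Hhip* 89.8% (88.7 to 90.9) and 81.3% (80.6 to 81.9), and for *Igfbp5* 87.6% (87.3 to 88.0) and 88.4% (88.2 to 88.6). *Vwc2* stood between these groups with 23.8% (21.9 to 25.7) and 30.5% (29.3 to 31.8).

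**Figure D1:**
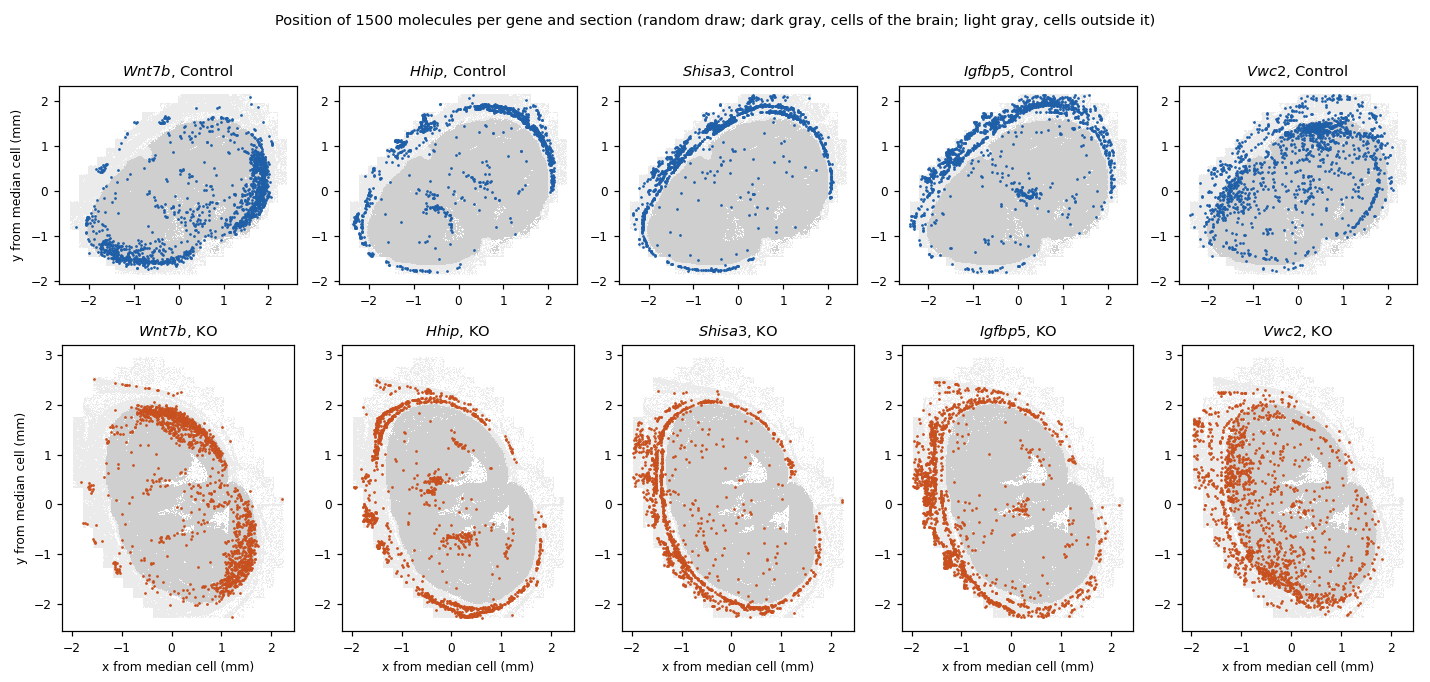
Positions of 1500 randomly drawn molecules of each gene (columns) in the control (upper row, blue) and KO section (lower row, orange), in mm from the median cell position, over cells of the brain (dark gray) and all other cells (light gray). *Wnt7b* lies mostly in the pallial region, *Hhip*, *Shisa3* and *Igfbp5* mostly around the brain, and *Vwc2* mostly in the brain.

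Cells of both sections were grouped into 25 clusters without using the 5 genes, and clusters are named here by their leading genes. *Wnt7b* was highest in the cluster led by *Mc4r*, *Fezf2* and *Ntsr1*, deep-layer neuron-like by its markers, of which 97.52% (control) and 99.5% (KO) of cells lay in the pallial region. Its level there was 22747 CPM (22039 to 23473) in the control section and 27864 CPM (27553 to 28177) in the KO. This cluster held 53.3% and 49.7% of all *Wnt7b* transcripts. It was the highest of the 25 clusters in both sections, and its interval did not overlap that of the next cluster.

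After every cell was thinned to 20 transcripts, 34.0% (32.7 to 35.4) of the control and 37.9% (36.9 to 38.9) of the KO cells of this cluster kept at least 1 *Wnt7b* transcript. Without thinning the shares were 49.4% and 74.7%. Microglia or macrophage-like cells of the brain, which serve as a background of neighbouring signal, reached 5.77% (3.87 to 8.24) and 9.08% (7.03 to 11.49) after thinning, at a median of 35 and 101 transcripts per cell against 32 and 100 in the *Mc4r*-led cluster. Their *Wnt7b* level of 3292 CPM (2556 to 4173) and 4815 CPM (4353 to 5314) was of the order of several other brain clusters. Of all microglia or macrophage-like cells, 9.77% (control) and 12.2% (KO) lay in the pallial region and 24.3% and 18.1% in the rest of the brain. The background pooled both places and was not matched to the place of each cluster. The cluster led by *Slc17a7*, *Nr4a2* and *C1ql3* (3576 and 4244 CPM) and the radial glia-like cluster led by *Hopx*, *Aldoc* and *Eomes* (1972 and 2892 CPM) lay near or under this background, and their *Wnt7b* is not read as expression here.

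Above it stood the cluster led by *Sstr2* and *Unc5d*, upper-layer or immature neuron-like, with 11536 CPM (10846 to 12258) in the control section and 14951 CPM (14689 to 15216) in the KO. Among clusters not confined to the tissue outside the brain, next came an *Npas1*-led cluster, with *Reln* and *Ndnf* also leading, with 6312 CPM (5828 to 6825) and 10500 CPM (10201 to 10806). This last cluster counted as MGE interneuron-like by its markers, while *Reln* and *Ndnf*, known from the Cajal-Retzius cells of the marginal zone, were also among its leading genes, and 35.3% (control) and 30.8% (KO) of its cells lay outside the outlined brain.

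*Wnt7b* in other pallial cells was highest close to its main source. Among pallial cells outside the projection neuron-like clusters and the *Npas1*- and *Calb2*-led clusters, *Wnt7b* was at 11459 CPM (8223 to 15545) within 10 µm of a *Mc4r*-led cell in the control section, at 5167 CPM (3893 to 6726) between 10 and 20 µm and at 2112 CPM (1435 to 2998) between 20 and 40 µm. In the KO section the same distances gave 9874 CPM (8634 to 11242), 9172 CPM (8199 to 10229) and 4463 CPM (3823 to 5180). The value nearest to these cells in the control was as high as that of the *Sstr2*-led cluster (11536 CPM), which also lies mostly in the pallial region, so that *Wnt7b* of the *Sstr2*-led cells was not separated there from signal of their neighbours. The *Sstr2*-led cluster of the KO section, at 14951 CPM (14689 to 15216), lay above the nearest value there. The *Npas1*-led cluster as a whole lay under the nearest value in the control (6312 CPM) and within its interval in the KO section (10500 CPM), and was not separated from it in either. Its cells outside the outlined brain were at 7676 CPM in the control and 12129 CPM in the KO section. Microglia or macrophage-like cells outside the brain were far lower, at 504 CPM (338 to 724) and 601 CPM (510 to 704). Signal of neighbours at the brain edge was not tested. Beyond 40 µm the values did not fall steadily, with 1769 CPM (1270 to 2400) in the control section and 5815 CPM (5223 to 6455) in the KO from 40 to 80 µm and 3722 CPM (2735 to 4950) and 3228 CPM (3031 to 3434) farther away. Whether transcripts assigned to the wrong cell account for this was not tested.

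Across the depth of the pallial region *Wnt7b* had a single main peak. In 10 equal bins from the pial surface (bin 1) to the inner edge of the outline (bin 10), it rose from 9494 CPM (8331 to 10774) in bin 1 to 18924 CPM (17777 to 20124) in bin 4 and fell to 4673 CPM (4037 to 5381) in bin 10 of the control section. In the KO section the values were 8701 CPM (8317 to 9099), 23344 CPM (22849 to 23848) and 10214 CPM (9856 to 10582). The peak bin was thus shared, the intervals of the sections overlapped in bin 1, and in bin 10 they lay far apart. The outline did not take in the same cells in both sections. Of the *Hopx*-led radial glia-like cluster, 18.9% of control and 49.7% of KO cells lay in the pallial region. The part of this difference in the bin 10 values was not tested. The median depth of *Wnt7b* transcripts, on a scale from 0 at the pia to 1 at the inner edge, was 0.43 in both sections, and for all panel transcripts it was 0.51 in the control section against 0.50 in the KO.

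**Figure D2:**
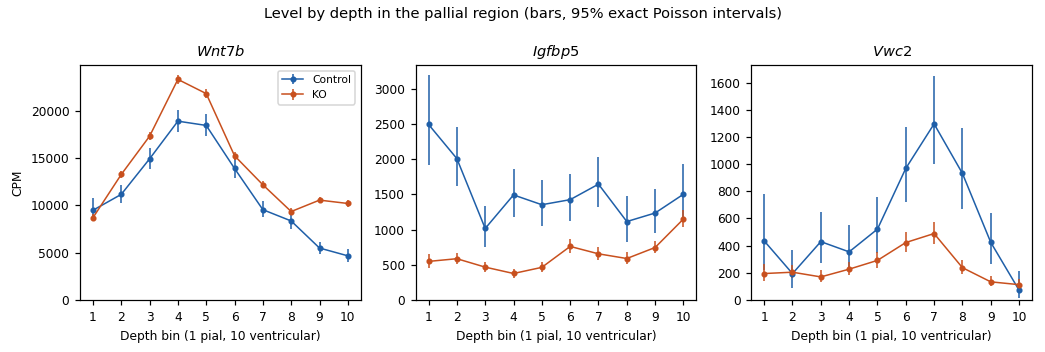
Level (CPM, vertical axis) of *Wnt7b*, *Igfbp5* and *Vwc2* in 10 depth bins of the pallial region from the pia (1) to the inner edge of the outline (10). Control is blue and KO orange, with 95% counting intervals. *Wnt7b* peaks in bin 4 and *Vwc2* in bin 7 of both sections, while *Igfbp5* has no peak in common.

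*Wnt7b* was also found in discrete sites outside the outlined brain. Small non-pallial parts that the outline cut off from the brain counted as outside it, whatever genes they held. Cells of the cluster led by *Aldh1l1*, *Olig2* and *Ednrb*, radial glia-like by its markers, carried 2191 CPM (1882 to 2537) in the control brain and 3963 CPM (3779 to 4154) in the KO brain. The 177 control and 335 KO cells of the same cluster that lay outside the brain carried 22535 CPM (19148 to 26348) and 41919 CPM (39788 to 44134), levels as high as or above those of the *Mc4r*-led neurons. Those cells made up a small group, yet held 19.2% and 24.0% of the *Wnt7b* transcripts outside the brain. In the KO section, 2 compact patches of *Wnt7b* molecules were composed mainly of such cells (83.9% and 87.0% of the *Wnt7b*-positive cells), with 998 and 943 molecules, at a median of 301 and 316 µm from the brain. A further 5 patches, 288 to 785 µm from the brain, were composed of the cluster led by *Lama3*, *Aldh1a1* and *Ccdc153*, a group with the epithelial genes *Lama3* and *Krt90* among its leading genes that met no fixed marker set. *Wnt7b* in that cluster was 8529 CPM (6093 to 11614) over 116 control cells and 15028 CPM (14105 to 15995) over 560 KO cells. Its interval overlapped that of the *Npas1*-led cluster in the control section and lay above it in the KO section. The other 10 patches of the KO section lay 12.5 to 37.5 µm from the outlined brain and were composed mainly of *Npas1*-led cells. No patch met the same density criterion in the control section, which held 1314 *Wnt7b* molecules outside the brain against 7645. Whether this followed from the depth or the plane of section was not tested.

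*Hhip* was a gene of the tissue around the brain. Its highest level was in the cluster led by *Hdc*, *Thbs2* and *Penk*, connective or meningeal-like, with 6329 CPM (6003 to 6667) in the control section and 5585 CPM (5430 to 5744) in the KO. Of that cluster, 98.0% and 99.1% of cells lay outside the brain, and it held 58.7% and 45.9% of all *Hhip* transcripts. The unnamed cluster led by *Creb3l1*, *Klf4* and *Unc5b* came next with 6220 CPM (5639 to 6844) and 4789 CPM (4570 to 5017). The first and second clusters overlapped in the control section and did not in the KO section. In the *Mc4r*-led neurons *Hhip* was at 11.7 CPM (1.41 to 42.2) and 9.05 CPM (4.34 to 16.6), under the median blank barcode.

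Outside the brain, microglia or macrophage-like cells showed *Hhip* at 2087 CPM (1730 to 2495) in the control section and 2328 CPM (2145 to 2522) in the KO, the background of that tissue. The *Hdc*-led and *Creb3l1*-led clusters exceeded it in both sections. After thinning to 20 transcripts, 9.66% (8.78 to 10.6) and 8.52% (7.84 to 9.24) of *Hdc*-led cells had *Hhip*, against 3.95% (2.80 to 5.40) and 3.68% (2.80 to 4.75) of the microglia or macrophage-like cells there, whose median depth was 52 and 153 transcripts against 45 and 120.

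Inside the brain *Hhip* was sparse. The *Aldh1l1*-led radial glia-like cluster held 32.8% of the *Hhip* transcripts of the control brain and 45.8% of those of the KO brain. Its brain cells were at 808 CPM (625 to 1028) in the control section and 2048 CPM (1916 to 2186) in the KO, higher than in any other cluster that lay mostly in the brain. Of the 155 pallial *Hhip* transcripts of the KO section, over all clusters, 70 lay in bin 10, at the inner edge. Pallial *Hhip* was at 34.1 CPM in the control and 47.1 CPM in the KO section, under the median blank barcode there (77.7 and 89.3 CPM). Bin 10 of the KO section, at 233 CPM (181 to 294), was under the highest pallial blank barcode (286 CPM), so no place is read from it. In the control only 16 pallial *Hhip* transcripts were counted, too few to place.

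*Shisa3* shared the ring with *Hhip*. In the clustering used here it was highest in the unnamed cluster led by *Slc7a11*, *Crabp2* and *Bmp4*, with 5651 CPM (5119 to 6222) in the control section and 5772 CPM (5497 to 6058) in the KO, and second in the *Hdc*-led cluster with 4845 CPM (4561 to 5142) and 4137 CPM (4003 to 4274). These clusters held 19.9% and 52.1% of *Shisa3* in the control and 19.9% and 43.6% in the KO section. Their intervals overlapped narrowly in the control section and were apart in the KO section. At resolution 1.2, and when all genes were used for clustering, *Shisa3* and *Hhip* were highest in the same *Thbs2*-led cluster. In the brain *Shisa3* stayed at the level of blank barcodes, with 34.1 CPM in the control section against 53.4 CPM in the KO pallial region.

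The place of both genes was set against the edge of the brain, in bins of distance. In the control section *Hhip* was at 63.7 CPM (29.1 to 121) in the first 50 µm outside the edge, at 2179 CPM (1927 to 2455) from 50 to 100 µm and at its highest, 6436 CPM (5990 to 6907), from 100 to 150 µm. In the KO section the same bins gave 205 CPM (172 to 242), 3470 CPM (3321 to 3623) and 4921 CPM (4703 to 5146). *Shisa3* was already at 5166 CPM (4773 to 5582) and 5157 CPM (4976 to 5344) from 50 to 100 µm, and its highest bin in the KO section was this one. In the control it was highest from 100 to 150 µm with 5436 CPM (5027 to 5870), within the interval of the bin before. Over all molecules outside the brain, the median distance was 163 µm (control) and 155 µm (KO) for *Shisa3*, 200 and 188 µm for *Hhip*, and 301 and 257 µm for *Igfbp5*. The order of the 3 genes from the brain outward was therefore the same in both sections. The brain edge is known to within a grid of 25 µm. It was drawn from connective genes, among them *Thbs2*, *Dcn* and *Igf2*, and *Shisa3* followed *Thbs2* over clusters (r = 0.94). The rise of *Hhip*, *Shisa3* and *Igfbp5* outside the edge, and their shares outside the brain, therefore depend in part on how it was drawn.

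**Figure D3:**
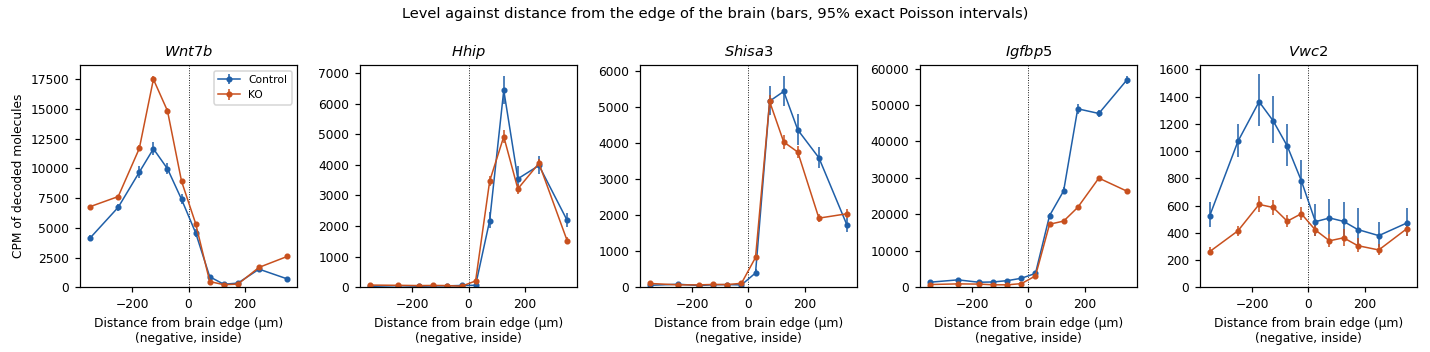
Level (CPM of all decoded molecules, vertical axis) against distance from the edge of the brain in µm (negative values inside), for control (blue) and KO (orange), with 95% counting intervals. *Hhip*, *Shisa3* and *Igfbp5* rise outside the edge and *Wnt7b* is highest 100 to 150 µm inside it.

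Within the *Hdc*-led cluster *Hhip* was not found more often in cells with *Shisa3*. After thinning, *Hhip* was found in 6.42% (4.02 to 9.65) of 327 control cells with *Shisa3* and in 9.93% (9.01 to 10.9) of 3867 cells without it. In the KO section the shares were 8.56% (6.10 to 11.6) of 432 cells and 8.52% (7.82 to 9.26) of 5858 cells. The intervals overlapped in each section, and a depletion or enrichment was not detectable at this depth.

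*Igfbp5* was the most abundant of the 5 genes by this count and the most widespread. It exceeded every blank barcode in 19 of 25 clusters in both sections. Connective or meningeal-like cells were rich in it, with 56072 CPM (54721 to 57449) in the control section and 26063 CPM (25593 to 26540) in the KO for the cluster led by *Efemp1*, *Osr1* and *Il33*, and 47728 CPM (46827 to 48642) and 27060 CPM (26716 to 27408) for the *Hdc*-led cluster. The unnamed cluster with the muscle genes *Myh8* and *Ttn* held 41819 CPM (40073 to 43622) and 22163 CPM (21655 to 22680). The highest control value, 98934 CPM (90136 to 108359), came from only 116 cells of the *Lama3*-led cluster, which were at 20159 CPM (19088 to 21275) in the KO section. That cluster was first in the control and the fifth in the KO section, so the order of the leading clusters was not shared.

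Among clusters that lay mostly in the brain, the level of *Igfbp5* in brain cells was highest in radial glia-like cells. The *Aldh1l1*-led cluster held 22.2% of the brain *Igfbp5* in the control section against 20.3% in the KO, at 9548 CPM (8890 to 10242) and 3886 CPM (3703 to 4075). The hypothalamic or ventral neuron-like cluster led by *Irs4*, *Calcr* and *Baiap3* held a further 14.5% and 14.9%, at 3011 CPM (2755 to 3284) and 1620 CPM (1532 to 1713). Its intervals overlapped those of the brain microglia or macrophage-like cells in both sections. Striatal projection neuron-like cells of the *Drd2*-led cluster were at 505 CPM (335 to 729) and 91.7 CPM (66.3 to 123), under the highest blank barcode of that cluster (523 and 367 CPM). Microglia or macrophage-like cells were at 29108 CPM (27730 to 30536) and 14030 CPM (13577 to 14495) outside the brain and at 2711 CPM (2048 to 3520) and 1775 CPM (1499 to 2088) inside it, so the background around an *Igfbp5* source was high.

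*Vwc2* stood out least from cluster to cluster. Its highest level, in the cluster led by *Sst*, *Elfn1* and *Sertm1*, was 4.89 times the median cluster in the control and 3.91 times in the KO section. For *Wnt7b* these were 35.8 and 42.4 times. The *Sst*-led cluster met the MGE interneuron-like class with 3 markers, the minimum, and its class is not taken as settled. Most cells of this cluster held no counted *Sst*, since 652 control and 1957 KO cells had it and 3762 and 4469 did not, and at a finer clustering *Vwc2* was highest in a cluster without *Sst* among its leading genes. The *Sst*-led cluster was at 2374 CPM (2164 to 2598) and 1134 CPM (1070 to 1200), and 90.5% and 93.4% of its cells lay in the brain outside the pallial region. It held 40.1% of brain *Vwc2* transcripts in the control section against 36.2% in the KO. After thinning, 4.17% (3.60 to 4.80) and 2.41% (2.05 to 2.82) of its cells had *Vwc2*, against 0.206% (0.00522 to 1.14) and 0.439% (0.0907 to 1.28) of microglia or macrophage-like cells in the brain. The oligodendrocyte precursor-like cluster led by *Gpr17*, *Olig1* and *Bcan* followed among brain clusters with 1305 CPM (945 to 1758) and 729 CPM (615 to 858). In the KO section the interval of the first cluster overlapped that of the second, the *Col9a2*-led cluster outside the brain with 774 CPM (466 to 1209).

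In the pallial region *Vwc2* peaked deeper than *Wnt7b*. It was highest in bin 7 of both sections, with 1296 CPM (1005 to 1646) in the control section and 489 CPM (414 to 574) in the KO, and its transcripts had a median depth of 0.58 and 0.54. *Igfbp5* there was highest in bin 1 of the control section (2492 CPM, 1915 to 3189) and in bin 10 of the KO section (1150 CPM, 1032 to 1277), and its median depth was 0.47 and 0.60.

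**Figure D4:**
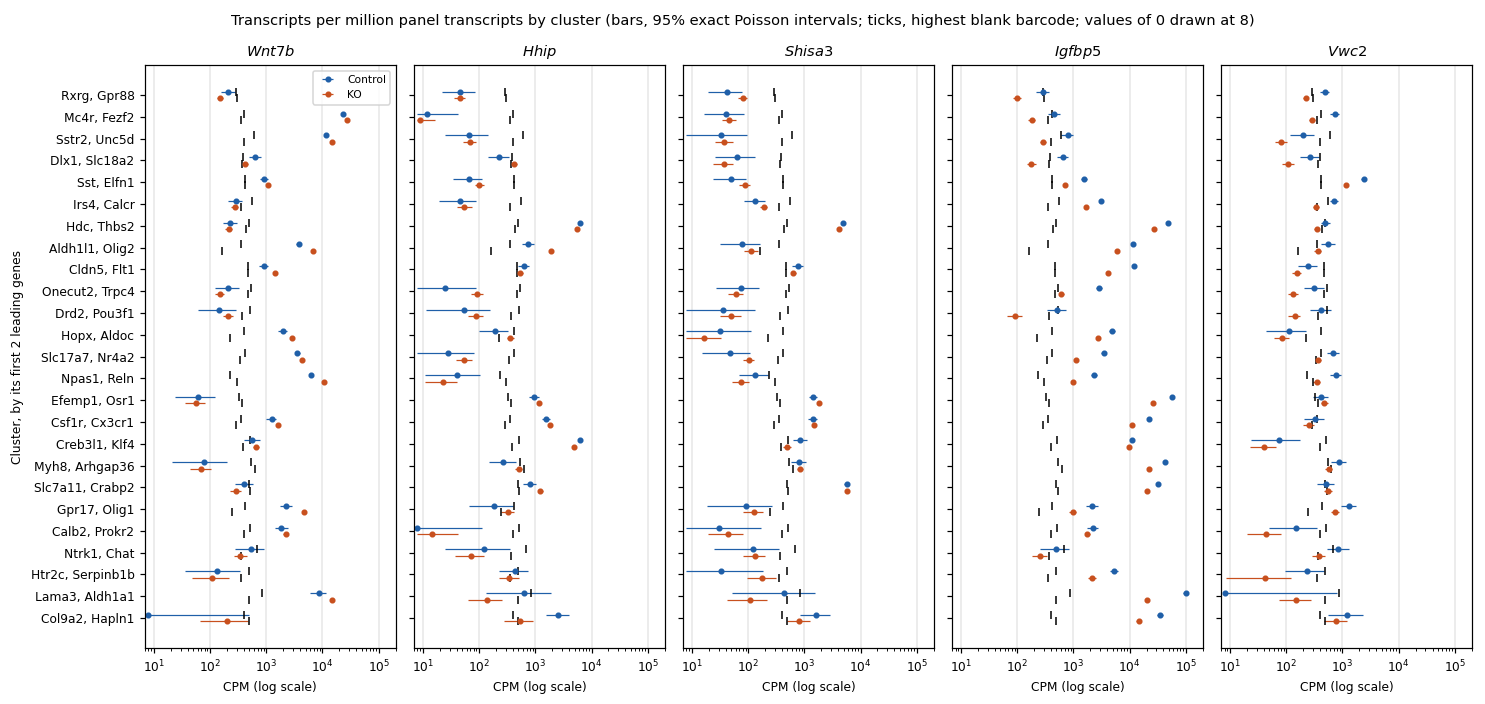
Level (CPM, logarithmic axis) of the 5 genes in each of 25 clusters, named by their first 2 leading genes, for control (blue) and KO (orange), with 95% counting intervals and the highest blank barcode of each cluster and section as a black tick. Values of 0 are drawn at 8 CPM. The *Mc4r*-led cluster leads for *Wnt7b*, the *Hdc*-led cluster for *Hhip* and the *Sst*-led cluster for *Vwc2* in both sections.

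Over the 25 clusters, the panel genes most like each member were named by Pearson r of log2(CPM + 10), averaged over the sections. For *Wnt7b* these were *Ntng2* (r = 0.81), *Prdm8* (0.72) and *Tbr1* (0.67). For *Hhip* they were *Daam2* (0.88), *Pmp22* (0.87) and *S1pr3* (0.85), and for *Shisa3* they were *Thbs2* (0.94), *Adgrg6* (0.92) and *Fgf2* (0.90). *Igfbp5* was most like *Prss23* (0.90), *Ccdc80* (0.89) and *S1pr3* (0.89). *Vwc2* had no close counterpart, and its highest values were 0.68 for *Sst*, 0.68 for *Ntm* and 0.66 for *Grin3a*. Among the members, *Shisa3* and *Igfbp5* reached 0.80, *Hhip* and *Shisa3* 0.76 and *Hhip* and *Igfbp5* 0.74, while *Wnt7b* was between -0.42 and -0.17 with the others. Clusters share a library and a depth, so these values are descriptions.

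Set against the panel, *Wnt7b* was higher and the other 4 genes were lower in the KO section. *Wnt7b* went from 3151 to 4631 CPM, a log2 ratio of KO over control of 0.56 (0.51 to 0.60). *Igfbp5* went from 12917 to 5203 CPM, with a log2 ratio of -1.31 (-1.34 to -1.28), and *Vwc2* from 652 to 326 CPM, with -0.999 (-1.11 to -0.88). *Hhip* went from 1040 to 793 CPM (-0.39, -0.48 to -0.31) and *Shisa3* from 896 to 618 CPM (-0.54, -0.63 to -0.44). In decoded molecules every one of the 5 was more numerous in the KO section, by 6.50-fold for *Wnt7b*, 4.27-fold for *Hhip*, 3.79-fold for *Shisa3*, 2.62-fold for *Vwc2* and 2.16-fold for *Igfbp5*, beside 4.71-fold for the whole panel. The size of the ratios moved with the cells that entered: with a minimum of 50 transcripts per cell, which removes more of the control section, the log2 ratio was 1.02 for *Wnt7b*, -0.97 for *Hhip*, -1.16 for *Shisa3* and -1.84 for *Igfbp5*.

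A 2-fold change of CPM, among the 250 genes whose mean level reached the panel's median, was passed by 8% of genes in the whole section, with 5.6% higher and 2.4% lower in the KO. Of the 5 members 4 reached that level, since *Vwc2* did not, and 1 of the 4, *Igfbp5*, was past 2-fold. The median log2 ratio of those 4 was -0.46, beside 0.07 over all 250 genes. Of these 250 genes, 0.4% had a lower ratio than *Igfbp5*, and *Wnt7b* was higher than 81.2% of them. Over the molecules of imaging plane 0 alone the log2 ratio of *Igfbp5* was -0.82 and with equal cluster weights -0.96, both short of 2-fold.

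Within regions the picture was steadier for some genes than for others. In the pallial region, of 250 genes 10.8% were past 2-fold, 6% higher and 4.8% lower. There 3 members passed the level filter and 2 were past 2-fold. *Igfbp5* went from 1475 to 629 CPM (log2 ratio -1.23, -1.40 to -1.06) and *Vwc2* from 579 to 246 CPM (-1.24, -1.51 to -0.96). The KO level of *Vwc2* lay under the highest blank barcode of that region (286 CPM), and the control level above its own (398 CPM). In imaging plane 0 alone both genes fell short of 2-fold, at -0.98 and -0.58. *Igfbp5* also did so for control hemisphere 1 against KO hemispheres 1 and 2, at -0.95 and -0.92. *Wnt7b* was 11852 CPM in the control section against 14487 CPM in the KO (0.29, 0.24 to 0.34). The single hemispheres were at 13530 and 11356 CPM in the control and 13606 and 15460 CPM in the KO section, so 1 hemisphere of each section lay at nearly the same level. Control hemisphere 1 was shallower than hemisphere 2, with a median of 14 against 23 transcripts per cell. Only 32.6% of its cells reached the minimum, against 58.0%, and its outline was smaller (1.085 against 1.854 mm2). For *Igfbp5* the hemispheres were at 1203 and 1556 CPM in the control and 623 and 636 CPM in the KO section and for *Vwc2* at 615 and 568 CPM and at 258 and 232 CPM, and the sections did not overlap. For *Hhip* and *Shisa3* only 16 control transcripts each were counted in this region, and no difference was detectable at this depth.

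In the rest of the brain, where 8.8% of the 250 genes were past 2-fold (4.4% lower), *Igfbp5* (log2 ratio -1.43, -1.52 to -1.34) and *Vwc2* (-1.24, -1.39 to -1.08) were again lower, and *Wnt7b* (0.57, 0.44 to 0.69) and *Hhip* (0.72, 0.44 to 1.005) were higher in the KO section. *Hhip*, at 161 and 265 CPM, lay under the highest blank barcode there (325 and 267 CPM) and did not reach the level filter. Outside the brain, where 9.2% were past 2-fold (0.4% lower), *Igfbp5* was lower (-0.98, -1.01 to -0.95), as were *Vwc2* (-0.31, -0.54 to -0.07), *Shisa3* (-0.27, -0.37 to -0.17) and *Hhip* (-0.22, -0.31 to -0.13), and *Wnt7b* was higher (0.69, 0.55 to 0.83). All 5 members reached the level filter there and none was past 2-fold. The panel's median ratio there was 0.24.

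**Figure D5:**
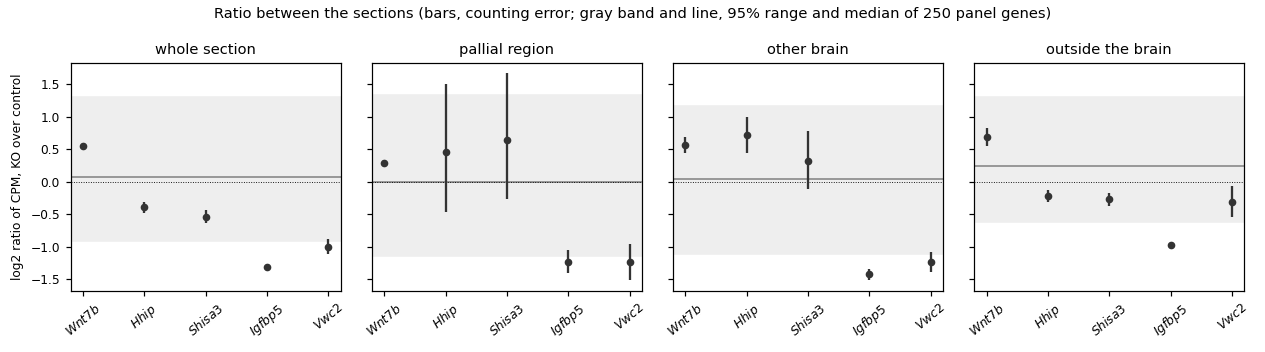
log2 ratio of CPM (KO over control, vertical axis) of the 5 genes in the whole section and its 3 regions, with counting ranges as bars, over the median (gray line) and 95% range (gray band) of the 250 more abundant panel genes. *Igfbp5* lies under the band in all 4 panels and *Wnt7b* lies inside it in all 4.

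*Igfbp5* was lower in most clusters. All 25 clusters had at least 10 *Igfbp5* transcripts in each section. Of these, 23 had a ratio range below 0 and none above, and the median log2 ratio over clusters was -1.15. No such count was made for the other panel genes, here or beside the count of *Vwc2* below. All clusters come from the same pair of sections and are not independent. Among the 19 clusters above every blank barcode in both sections, 18 had a range below 0. Several of these in the brain lay near or under the *Igfbp5* level of the microglia or macrophage-like cells there. That background was lower in the KO section too, with a log2 ratio of -0.61 (-1.23 to 0.03) in the brain and -1.05 (-1.17 to -0.94) outside it, and its part in the *Igfbp5* ratios was not tested. By place, over clusters with at least 10 transcripts in each section, the ratio was above 0 only in the *Aldh1l1*-led cluster outside the brain, with 32439 CPM in the control section against 33847 CPM in the KO (log2 ratio 0.06, -0.21 to 0.34), whereas its brain cells were at -1.30 (-1.47 to -1.13), and several further clusters had a range that held 0. *Vwc2* was lower in 13 of 19 clusters with enough transcripts and higher in none, with a median of -1.06. Only 9 clusters exceeded every blank barcode in both sections, and 5 of the 13 were among them. In its leading *Sst*-led cluster the log2 ratio was -1.07 (-1.28 to -0.85), close to that median. *Tcf7l2*, on the fixed marker list of subcortical glutamatergic neurons, was also highest in this cluster, at 21867 CPM in the control and 9515 CPM in the KO section. Whether the cell makeup of the cluster differed between the sections was not tested.

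*Wnt7b* was higher in 9 of 20 clusters and lower in 1, with a median log2 ratio of 0.25. Such counts were not made for the other panel genes, here or beside those of *Hhip* and *Shisa3* below. Of the 9 clusters, the *Hopx*-, *Slc17a7*-, *Cldn5*- and *Gpr17*-led ones lay near or under the level of microglia or macrophage-like cells of the brain. So did the brain cells of the *Aldh1l1*-led cluster. That level pooled the pallial region and the rest of the brain. In the latter, where 91.3% (control) and 91.5% (KO) of *Aldh1l1*-led cells lay, *Wnt7b* was at 819 and 1212 CPM. The pooled background was thus not matched to the place of these cells. It was itself higher in the KO section, with a log2 ratio of 0.55 (0.06 to 1.06), and its part in the *Wnt7b* ratios was not tested. By cluster it was 0.29 (0.23 to 0.35) in *Mc4r*-led, 0.37 (0.26 to 0.49) in *Sstr2*-led and 0.73 (0.58 to 0.89) in *Npas1*-led cells. *Hhip* was higher in 3 of 14 clusters and lower in 3, among them -0.18 (-0.30 to -0.06) in the *Hdc*-led and -0.38 (-0.58 to -0.17) in the *Creb3l1*-led cluster and 1.37 (0.92 to 1.83) in the *Aldh1l1*-led cluster. *Shisa3* was 0.03 (-0.18 to 0.24) in its highest cluster and higher in 1 and lower in 2 of 11. When the clusters were given equal weights in both sections, the whole-section ratios of *Hhip* and *Shisa3* went to -0.02 and -0.08. The part of the cell makeup of the sections in these differences was not tested.

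The panel holds 13 other genes of the Wnt, Hedgehog, IGF and BMP pathways. Over the whole section, 1 of them was at least 2-fold higher in the KO and none at least 2-fold lower, with a median log2 ratio of -0.06. Among the 250 more abundant panel genes these shares were 5.6% and 2.4%, near the count of 1 of 13, and the 13 genes were counted without the level filter. The one was *Gpr161*, a receptor of the primary cilium that holds Hedgehog signalling down, which went from 2047 to 5394 CPM (1.40). Among genes of the IGF axis, the ligand *Igf2* went from 60520 to 38101 CPM (-0.67) and in the brain outside the pallial region from 9689 to 4188 CPM (-1.21), the receptor *Igf1r* from 9762 to 9508 CPM (-0.04) and *Igfbpl1*, a gene of the binding protein family, from 6292 to 10480 CPM (0.74). Of Wnt components, *Tcf7l2*, a transcription factor of the pathway, went from 6195 to 3509 CPM (-0.82) and the receptor *Fzd4* from 788 to 640 CPM (-0.30). *Frzb* and *Rspo1*, a secreted antagonist and a secreted enhancer, were under 200 CPM in both. Of the BMP ligands *Bmp4* was at 671 and 854 CPM (0.35) and *Bmp7* at 3309 and 3173 CPM (-0.06).

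*Bmp4* was highest, at 5255 CPM in the control section against 10527 CPM in the KO, in the *Slc7a11*-led cluster that was also highest for *Shisa3*, and *Bmp4* was one of the genes leading that cluster. *Frzb* was highest in the *Creb3l1*-led cluster, second for *Hhip*, and *Tcf7l2* in the *Sst*-led cluster, first for *Vwc2*. *Fzd4* was highest in the *Efemp1*-led cluster, where *Igfbp5* was also among its highest values. In the brain outside the pallial region, 3 of the 13 genes were at least 2-fold lower in the KO, namely *Igf2*, *Tcf7l2* and *Rspo1*, and these were named after their values were seen. The share over the 250 more abundant panel genes was 4.4%, and *Rspo1*, at 166 and 82.5 CPM there, did not reach the level of those genes.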

How the data were processed

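The authors imaged both sections on a MERSCOPE instrument, which decoded molecules and segmented cells. The segmentation model and software versions are not given in the sources used here. The deposited values were raw counts of molecules per cell and gene, with a position and 1 of 7 imaging planes for each molecule. The 5 genes, the gene lists and the alternatives were chosen with earlier results of these data known.

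Only cells holding 20 or more panel transcripts entered the analysis. Both sections were clustered in R 4.3.3 with Seurat 5.3.0 (reciprocal PCA, 30 components, resolution 0.8) without the 5 genes. A cluster received a class name with at least 3 fixed markers of that class, and more than of any other, among its top 10 genes by fold. No doublet caller was run, since cells were segmented from images. The pallial region was outlined from transcripts binned at 25 µm and blurred (Gaussian SD 50 µm), wherever more than 50% of the summed pallial and subpallial marker transcripts were pallial. Connective genes delimited the brain in the same way, and connective bins counted as outside it only where joined to the outer edge of the section. Small non-pallial parts cut off from the brain also counted as outside it, whatever genes they held. The limits were set after the sections were seen. Hemispheres were separated by k-means on position.

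Intervals are exact Poisson for counts and Clopper-Pearson for shares. The range of a ratio pairs opposite interval ends. The computation was tested on simulated data. The named genes were the 5 members, pathway genes from lists and the 3 panel genes most like each member. Python 3.11.15, numpy 2.4.6, scipy 1.17.1, pandas 2.3.3 and scikit-learn 1.9.0 were used. Alternatives were other minimums, thinning, all molecules, 1 imaging plane, equal cluster weights, the 1% largest cells left out, single hemispheres and other clusterings.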

Additional observations from a re-analysis of the deposited data

Results flagged for a closer look

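*Hhip* was the only one of the 5 genes whose ratio between the sections took opposite directions in different regions with counting ranges on opposite sides of 0. Its log2 ratio of KO over control was 0.72 in the brain outside the pallial region and -0.22 outside the brain. In the former region its 161 and 265 CPM lay under the highest blank barcode (325 and 267 CPM) and did not reach the panel's median level. The difference between the regions was not tested, since there is 1 section per genotype.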

How the results depend on the processing

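No paired analysis was possible because each genotype has 1 section, and for the same reason no replicate could be left out. Every whole-section ratio kept its direction under all 8 alternatives. In the pallial region *Wnt7b*, *Igfbp5*, *Vwc2* and *Hhip* did so under all 12, and *Shisa3* under 11, with -0.23 for control hemisphere 1 against KO hemisphere 2 (5 control transcripts). Over these ratios and the median depths below, 50 values moved, 1 reversed and 61 stayed within the range, and the cluster levels moved in 20 of 30 cases. The values that left the counting range of the reported ratio follow, as log2 ratios, and the cause was not tested.

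Over the whole section, with no minimum of transcripts per cell the ratio was 0.42 for *Wnt7b*, -0.20 for *Hhip*, -0.33 for *Shisa3* and -1.13 for *Igfbp5*, and with a minimum of 50 it was 1.02, -0.97, -1.16 and -1.84. With the KO section thinned to the control depth it was 0.50 for *Wnt7b*, -0.39 for *Shisa3* and -1.24 for *Igfbp5*. Over all decoded molecules it was 0.46 for *Wnt7b*, -0.14 for *Hhip*, -0.32 for *Shisa3*, -1.13 for *Igfbp5* and -0.85 for *Vwc2*, and over imaging plane 0 alone 0.36, -0.12, -0.20, -0.82 and -0.58. With equal cluster weights it was 0.37 for *Wnt7b*, -0.019 for *Hhip*, -0.076 for *Shisa3* and -0.96 for *Igfbp5*. Without the 1% largest cells it was -1.27 for *Igfbp5*. Relative to the panel median, an alternative chosen after seeing the data, it was 0.49 for *Wnt7b* and -1.38 for *Igfbp5*.

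In the pallial region, *Wnt7b* was at 0.22 with no minimum, 0.62 with a minimum of 50, 0.19 in plane 0, and 0.0081, 0.19 and 0.45 for hemispheres 1 and 1, 1 and 2, and 2 and 2 of control and KO. *Igfbp5* was at -1.02, -1.88 and -0.98 under the first 3 of these settings and at -0.95 and -0.92 for control hemisphere 1 against KO hemispheres 1 and 2. *Vwc2* was at -1.54 with a minimum of 50 and -0.58 in plane 0.

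The median depth in hemispheres 1 and 2 alone was 0.39 and 0.43 (control) and 0.45 and 0.41 (KO) for *Wnt7b*, 0.65 and 0.56 (KO) for *Igfbp5*, and 0.50 and 0.57 (KO) for *Vwc2*, with 0.55 in control hemisphere 1. Other clusterings kept the *Mc4r*-led cluster first for *Wnt7b* and a *Thbs2*-led cluster first for *Hhip*, *Vwc2* was highest in a cluster led by *Elfn1*, *Sertm1* and *Epha6*, without *Sst* among these leading genes, at resolution 1.2, whereas for *Shisa3* and *Igfbp5* the first place went to the *Thbs2*-led cluster.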

Other observations

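Cells with at least 2 *Sst* transcripts, the gene that drives Cre, numbered 278 in the control section, against 1825 in the KO section. *Vwc2* in them was at 3505 CPM (2633 to 4573) in the control section and 1038 CPM (940 to 1142) in the KO, a log2 ratio of -1.76 (-2.28 to -1.20), beside -1.06 (-1.18 to -0.93) in cells without *Sst*. *Igfbp5* was at -1.71 (-2.33 to -1.06) in them and -1.27 (-1.30 to -1.25) in cells without *Sst*. The cut of 2 *Sst* transcripts selects different cells at different depths (median 34 and 109 transcripts per cell), and the difference between these groups of cells was not tested. With *Vwc2* thinned to 20 transcripts per cell, but *Sst* counted before thinning, 6.29% (4.55 to 8.43) of the control and 2.61% (1.95 to 3.41) of the KO cells with *Sst* in the *Sst*-led cluster had *Vwc2*, beside 3.80% (3.21 to 4.46) and 2.33% (1.91 to 2.81) of those without. *Wnt7b* was at 1363 CPM (844 to 2083) and 1358 CPM (1246 to 1477) in cells with *Sst*.

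Within single clusters, cells with at least 2 transcripts of a member differed in other genes from cells with none, as folds of CPM in control and KO. Clusters and genes here were chosen after their values were seen. In the *Npas1*-led cluster, cells with *Wnt7b* had 4.44-fold and 5.94-fold more *Ebf3* and 3.08-fold and 4.48-fold more *Ndnf*. In the *Aldh1l1*-led cluster, cells with *Wnt7b* had 39.6-fold and 36.3-fold more *Nkx6-1*, 7.23-fold and 15.1-fold more *Igf2* and 16.2-fold and 9.25-fold more *Nr2f2*, over 56 and 629 cells, and in the KO section 11.3-fold more *Dcn* (only 4 *Dcn* transcripts were counted in the control cells). *Igf2* and *Dcn* lay mostly outside the brain (91.1% and 94.6% of their control molecules). Both are among the connective genes from which the brain edge was drawn, so these shares depend in part on the outline. The class of these cells was not settled by the fixed markers. In the *Hdc*-led cluster, cells with *Hhip* had 3.75-fold and 5.11-fold more *Npnt*, an extracellular matrix gene, and cells with *Shisa3* had 2.003-fold and 3.01-fold more *Col14a1*, a collagen gene. In the *Slc7a11*-led cluster, cells with *Shisa3* had 5.04-fold and 7.58-fold more *Col14a1*. In the *Sst*-led cluster, cells with *Vwc2* had 5.50-fold and 4.14-fold more *Fezf2* and 4.23-fold and 2.99-fold more *Cxcl14*.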
